A study of Mus musculus with 12 samples.

Results

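Ifih1 and the other sensors of foreign or misplaced nucleic acid were followed in mouse LSK cells. These are marrow cells sorted as negative for lineage markers and positive for SCA1 and cKIT, a gate that enriches stem and progenitor cells. The set holds 9 genes out of 22180 with a named probe set on the array: Ifih1, Ddx58, Dhx58, Mavs, Tlr3, Tlr7, Tlr9, Zbp1 and Aim2. They were chosen by gene symbol, and each was measured by 1 probe set. Ifih1 leads the set because its values were lower in every NIPA knockout array, so all genotype differences of the 9 genes are given as a description, without a test.

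Arrays were hybridised with RNA of aged mice, older than 20 months, that carried or lacked Nipa (the gene is named Zc3hc1) after at least 10 backcross generations to C57BL/6. Each array holds LSK cells merged from 3 mice, which were sorted from the marrow of the femurs, cultured for 30 min in 30% serum with IL-3, IL-6 and SCF, left untreated or given 4 Gy, and harvested after 3 h in culture. The 12 arrays form 4 groups of 3, namely untreated wild type (WT), irradiated WT, untreated knockout (KO) and irradiated KO. All groups share the sort, the age and the cytokine culture. The labels do not say which part of the gene the knockout lacks, nor whether untreated and irradiated cells were taken from shared pools. A p-value here therefore reflects only how much these arrays varied, part of which may be technical. In bulk RNA, fewer cells of a type and less RNA per cell cannot be told apart.

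RIG-I-like receptors survey the cytosol for double-stranded RNA and, once bound to it, signal through the mitochondrial adaptor MAVS to the kinases that switch on interferon genes. Endosomal Toll-like receptors read RNA and DNA that a cell has taken up, AIM2 reads DNA in the cytosol and builds an inflammasome, and ZBP1 binds Z-form nucleic acid and can start necroptosis. Several of the sensor genes, Ifih1 and Ddx58 among them, are known as interferon-stimulated genes, so a cell's interferon tone bears on how much sensor it makes. In haematopoietic stem cells interferon signalling is known to affect dormancy and cycling.

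The promoter of Ifih1 is shown because this gene differed between the genotypes, and its interferon motif stands beside that of Ddx58, a related gene with another pattern. Sequences are from RefSeq (GRCm38.p6), which held a promoter for 6 of the 9 genes. Dhx58, Tlr7 and Zbp1 had none there. The 250 bases before the Ifih1 start site, on the minus strand at chr2:62646256-62646505, hold neither motif searched and are given in lower case throughout. Capitals in the lines for the motifs mark the match to GAAA, any 2 bases and GAAA again, the core of the interferon-stimulated response element, or to its reverse complement. The Ifih1 match begins 33 bases into the transcript, at chr2:62646206-62646233 with its flanks. In Ddx58 the match, on the opposite strand, begins 3 bases into the transcript, at chr4:40239804-40239833 with its flanks.
Ifih1 upstream: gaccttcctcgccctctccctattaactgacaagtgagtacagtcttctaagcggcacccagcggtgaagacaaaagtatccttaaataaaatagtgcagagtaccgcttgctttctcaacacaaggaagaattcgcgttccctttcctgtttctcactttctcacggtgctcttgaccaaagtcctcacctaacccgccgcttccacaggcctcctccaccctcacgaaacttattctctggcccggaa
Ifih1 motif: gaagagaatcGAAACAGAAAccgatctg
Ddx58 motif: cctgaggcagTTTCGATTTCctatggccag

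Both strands were searched over 300 bases, from 250 before to 50 after the start. This core was present in the windows of Ifih1 and Ddx58 and in none of those of Mavs, Tlr3, Tlr9 and Aim2. Of all 32851 promoters of that length, 3.44% held it. The gamma-activated sequence TTCNNNGAA, which reads the same on both strands, was in none of the 6 windows and in 8.3% of all promoters. A match is a run of letters and was not tested as a site.

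Array values were the deposited log2 intensities, on which a difference of 1 is a doubling. Values of different genes come from different probes and are not set against each other. All 9 genes passed the brightness limit used for testing (log2 5.29 in at least 3 arrays). Tlr3 did so in only 9 of 12 arrays, and the others in all 12. Array medians lay between 5.74 and 5.85, and the mean correlation of each array with the others of its group was 0.963 to 0.982. Zc3hc1 was at 7.67 to 8.47 in the 6 WT arrays and at 5.61 to 5.82 in the 6 KO arrays, as the labels state. Of 11 stem and progenitor markers, the 9 with a named probe set, among them Kit, Cd34 and Meis1, were all above the limit. The sort marker Ly6a was not analysed here. Among T and NK cell markers 3 of 9 were above the limit, namely Cd3d, Cd3g and Nkg7. Cd3e, Cd4, Cd8a, Ncr1, Klrb1c and Gzma were not. Nkg7 was bright, at 8.74 to 10.02 over the 12 arrays.

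Ifih1 encodes MDA5, the receptor for long double-stranded RNA. In WT cells the log2 values of Ifih1 were 8.57, 8.19 and 8.27 without irradiation and 8.74, 8.40 and 8.35 after it. In KO cells they were 7.59, 7.57 and 7.76 without irradiation and 7.66, 7.77 and 7.86 after it. Every KO array lay below every WT array, with a gap of 0.33 between the highest KO and the lowest WT value. Group means were 8.34 ± 0.20, 8.50 ± 0.21, 7.64 ± 0.10 and 7.76 ± 0.10 (SD, n = 3), in the same order of groups. From high to low the groups ran irradiated WT, untreated WT, irradiated KO, untreated KO. Neighbouring groups of the same genotype overlapped.

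The difference between KO and WT in Ifih1 was -0.70 (SE 0.14) without irradiation and -0.74 (SE 0.14) after it, and their average of -0.72 is a 1.65-fold lower level in KO cells. These are the values that chose the gene. Among 15348 genes tested, 10 (0.0652%) had all 6 KO arrays below all 6 WT arrays. In 17 genes (0.111%) they lay above, which makes 27 (0.176%) either way. Ifih1 had the third most negative average difference of the 10 lower genes. Zc3hc1 itself had -2.39 and the chemokine gene Ccl5 -1.03. When all genes are ordered by the average difference, without regard to overlap, Ifih1 was at place 13. Leaving out any single array gave averages between -0.76 and -0.66.

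Irradiation gave Ifih1 differences near 0 in both genotypes, 0.16 in WT (SE 0.14, 95% interval -0.14 to 0.45, limma adjusted p = 0.576) and 0.12 in KO cells (SE 0.14, interval -0.18 to 0.42, adjusted p = 0.701). The difference of these effects was -0.04 (interval -0.46 to 0.38, adjusted p = 1.0). A change of more than 0.45 in WT or 0.42 in KO cells lies outside these intervals.

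Genes whose values over the 12 arrays were most like those of Ifih1 were Zc3hc1 (Pearson r = 0.908), Sgce (0.884), Mybpc3 (0.875), Cadps2 (0.845) and Fam210b (0.842), out of 15347 compared. The arrays share 4 groups, and the likeness carries the genotype difference that chose Ifih1. Over deviations from the group means r was 0.347 for Zc3hc1, 0.634 for Sgce, 0.764 for Mybpc3, 0.651 for Cadps2 and 0.492 for Fam210b. Mybpc3 had group means of 6.17 and 6.35 in WT and 6.04 and 6.07 in KO cells, without and with irradiation. Cadps2 had 6.27, 6.63, 5.93 and 6.14 in the same order. Of the other sensors Ddx58 had r = 0.461 with Ifih1 over the arrays and 0.513 over deviations, and Tlr9 had -0.51 and -0.407. Over deviations Tlr3 had 0.813 and Aim2 0.811, each above the 5 named genes, with 0.367 and -0.178 over the arrays. These correlations are descriptions over 12 arrays.

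Ifih1 lies on chromosome 2, as do Mavs and Zbp1, while Zc3hc1 lies on chromosome 6, per the RefSeq gene table. The 5 tested genes on either side of Ifih1 in that table's order are Rbms1, Tank, Psmd14, Dpp4 and Fap before it and Gca, Cobll1, Slc38a11, Csrnp3 and Galnt3 after it. Their average KO minus WT differences ran from -0.16 in Gca to 0.18 in Slc38a11, and none passed the test (limma adjusted p = 1.0 for all 10). Gca, which follows Ifih1 directly in this order, had -0.31 without and -0.01 after irradiation.

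Ddx58 encodes RIG-I, the sensor of RNA with a triphosphate end. WT arrays had log2 values of 8.49, 8.60 and 8.41 without irradiation and 8.29, 8.06 and 7.64 with it. KO arrays had 7.98, 7.85 and 8.22 without and 7.99, 7.90 and 7.86 with it. The untreated WT arrays were above those of the 3 other groups, which overlapped among themselves. Group means were 8.50 ± 0.10, 8.0 ± 0.33, 8.02 ± 0.18 and 7.91 ± 0.07 (SD, n = 3).

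In WT cells Ddx58 had an irradiation difference of -0.50 (SE 0.15, 95% interval -0.84 to -0.17), which did not pass the test across all genes (limma adjusted p = 0.0872). It passed without irradiated WT array 1, the highest of its group (-0.65, adjusted p = 0.036). In KO cells the difference was -0.10 (SE 0.15, adjusted p = 0.79), and the effects differed by 0.40 (SE 0.22, interval -0.07 to 0.88, adjusted p = 1.0). Averaged over genotypes it was -0.30 (SE 0.11, adjusted p = 0.0796), and -0.38 without irradiated WT array 1 (adjusted p = 0.0281). The genotype difference was -0.48 without irradiation and -0.08 after it.

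Dhx58 encodes LGP2, a relative of both receptors that lacks their signalling domain and tunes them. Its untreated values were tight, 7.19, 7.22 and 7.17 in WT and 7.14, 7.06 and 7.15 in KO cells. After irradiation they were 7.24, 7.08 and 6.76 in WT and 7.0, 6.78 and 6.8 in KO cells. The irradiated KO arrays lay below the untreated KO arrays, while the WT groups overlapped. Differences were -0.17 (SE 0.12, limma adjusted p = 0.501) in WT, -0.26 (SE 0.12, adjusted p = 0.278) in KO cells and -0.21 on average (SE 0.09, adjusted p = 0.124). None passed the test.

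MAVS, on which both RNA helicases converge, was measured at 7.97, 8.32 and 8.28 in untreated WT cells and at 7.85, 7.71 and 7.64 after irradiation. In KO cells Mavs was at 8.09, 8.33 and 7.79 without and at 8.07, 7.87 and 7.74 with irradiation. The WT groups did not overlap and the KO groups did. Differences were -0.45 in WT (SE 0.15, limma adjusted p = 0.117), -0.17 in KO cells (SE 0.15, adjusted p = 0.601) and -0.31 on average (SE 0.11, adjusted p = 0.0674). The average passed without irradiated KO array 1 (-0.36, adjusted p = 0.0392), untreated KO array 3 (-0.38, adjusted p = 0.0286) or untreated WT array 1 (-0.37, adjusted p = 0.0409).

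**Figure D1:**
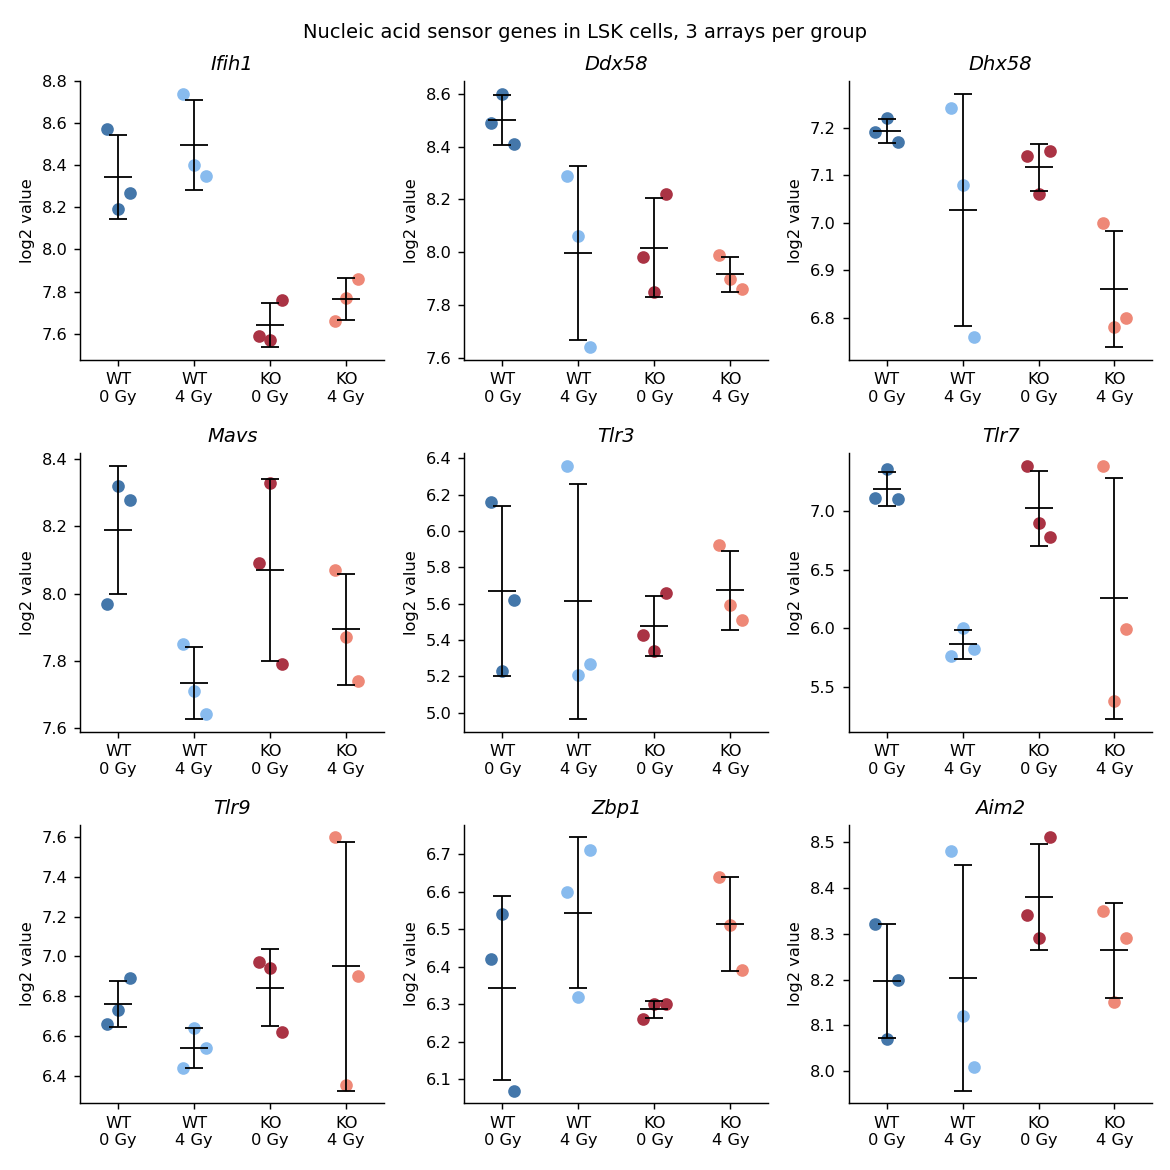
Log2 value of each sensor gene (vertical axes, a scale of its own in each panel) in the 4 groups (horizontal axes). Points are single arrays, in the order 1 to 3 from left to right, and black bars give mean and SD of 3 arrays. All KO arrays of Ifih1 lie at 7.86 or below and all WT arrays at 8.19 or above, and Tlr7 is at 6.00 or below in 5 of the 6 irradiated arrays.

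Tlr7, the endosomal receptor for single-stranded RNA, was the 1 sensor gene that passed the test for irradiation, and it fell. The untreated WT arrays gave log2 values of 7.11, 7.36 and 7.10, and the irradiated WT arrays gave 5.76, 6.00 and 5.82. In KO cells they were 7.39, 6.90 and 6.78 without and 7.39, 5.38 and 5.99 with irradiation. All irradiated WT arrays were below all untreated WT arrays. Of the irradiated KO arrays, 2 were below every untreated array and array 1 stood as high as the highest untreated one. Group means were 7.19 ± 0.15, 5.86 ± 0.12, 7.02 ± 0.32 and 6.25 ± 1.03 (SD, n = 3).

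Averaged over genotypes, Tlr7 fell by 1.05 on the log2 scale (SE 0.26, 95% interval -1.62 to -0.48, limma adjusted p = 0.0163), a 2.07-fold lower level. The adjusted p stayed between 8.02e-05 and 0.0436 when any single array was left out. Without irradiated KO array 1 the average was -1.33, and without irradiated KO array 2 it was -0.83. The call was lost without both untreated KO array 2 and irradiated KO array 3 (-1.02, adjusted p = 0.0698).

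In WT cells alone the difference of Tlr7 was -1.33 (SE 0.37, interval -2.13 to -0.53), with limma adjusted p = 0.0605 when the 4 groups share 1 spread. The fit with blocks by number within each genotype, KO arrays included, gave an adjusted p of 0.00971. Blocks by number across both genotypes gave 0.0412, and a fit of the WT arrays alone, without a block, gave 0.0012. In the fit over all groups, leaving out any single WT array gave an adjusted p from 0.0994 to 0.2. Same-numbered arrays deviated together over genes in WT cells, and in KO cells only at number 1. No fit paired the WT arrays alone. Without a block, the adjusted p was also under the threshold without irradiated KO array 1 (adjusted p = 0.00149) or 2 (0.0226), which contribute to the shared spread. In KO cells the difference was -0.77 (SE 0.37, interval -1.57 to 0.03, adjusted p = 0.275), and without irradiated KO array 1 it was -1.34 (adjusted p = 0.00278). It was -0.33 without irradiated KO array 2. The effects in the genotypes differed by 0.56 (SE 0.52, interval -0.57 to 1.70, adjusted p = 1.0), which rests on irradiated KO array 1, since the value without it was 0.00.

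Markers of other cell types were set beside the Tlr7 values as summed linear levels. Irradiated KO array 1 had 5092 for the 9 monocyte and macrophage markers, of which 8 were above the limit, against 2546 and 3104 in the others of its group. Untreated KO array 1 was likewise high, at 4416 against 2538 and 2424, and the WT arrays lay between 2099 and 3091. Granulocyte markers, 8 of 9 above the limit, gave 11271 in irradiated KO array 1 against 6338 and 8531, and 9777 in untreated KO array 1 against 4552 and 5073. Linear sums weigh the brightest markers most, here Mpo, Elane and Prtn3 (irradiated KO means 12.03, 11.21 and 10.24) and the monocyte marker Ly6c2 (10.91). These were higher in irradiated KO than in irradiated WT cells. Ltf, Camp, S100a8 (6.54 against 7.27), S100a9, Ngp (7.71 against 8.11) and Ly6g were lower. Of the monocyte markers Csf1r and Adgre1 were lower and the others higher. Plasmacytoid dendritic markers, 6 of 8 above the limit, summed to 3081 in irradiated KO array 1 against 2400 and 2606, with Ccr9 and Klk1 below the limit. The plasmacytoid sum ran from 2839 to 3238 in untreated WT and from 2603 to 2839 in irradiated WT cells.

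Erythroid markers, 6 of 9 above the limit, ranged from 671 to 883 in untreated and from 393 to 409 in irradiated WT cells. In the KO groups they ranged from 1029 to 1438 and from 392 to 539. Between the WT groups, in which Tlr7 had no overlap, the monocyte sum ranged from 2099 to 2973 without and from 2161 to 3091 with irradiation. Conventional dendritic markers, 7 of 8 above the limit, ranged from 1276 to 1518 and from 1088 to 1234 in these groups. Of these markers Flt3, also a stem and progenitor marker here, had WT means of 8.82 without and 7.52 with irradiation. Cd209a, Ciita and H2-Aa were lower too, while Itgax (6.82 and 7.6), Zbtb46 (5.87 and 6.28) and Xcr1 (5.4 and 5.65) were higher. B cell markers, 7 of 9 above the limit with Ms4a1 below it, summed to 3202 in untreated KO array 2 and 3528 in irradiated KO array 3, and to between 493 and 1133 in the other arrays. The part of these cell types in the Tlr7 values was not tested.

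Tlr9, the endosomal receptor for unmethylated CpG DNA, had log2 values of 6.66, 6.73 and 6.89 in untreated WT and 6.44, 6.64 and 6.54 in irradiated WT cells. In KO cells they were 6.97, 6.94 and 6.62 without and 7.60, 6.35 and 6.90 with irradiation. Irradiated KO array 1, the array of high Tlr7 and high monocyte and granulocyte marker sums, had the highest Tlr9 value of all 12. Differences were -0.22 in WT (SE 0.24, limma adjusted p = 0.66) and 0.10 in KO cells (SE 0.24, adjusted p = 0.868). Without irradiated KO array 1 the KO difference was -0.22 (adjusted p = 0.487).

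**Figure D2:**
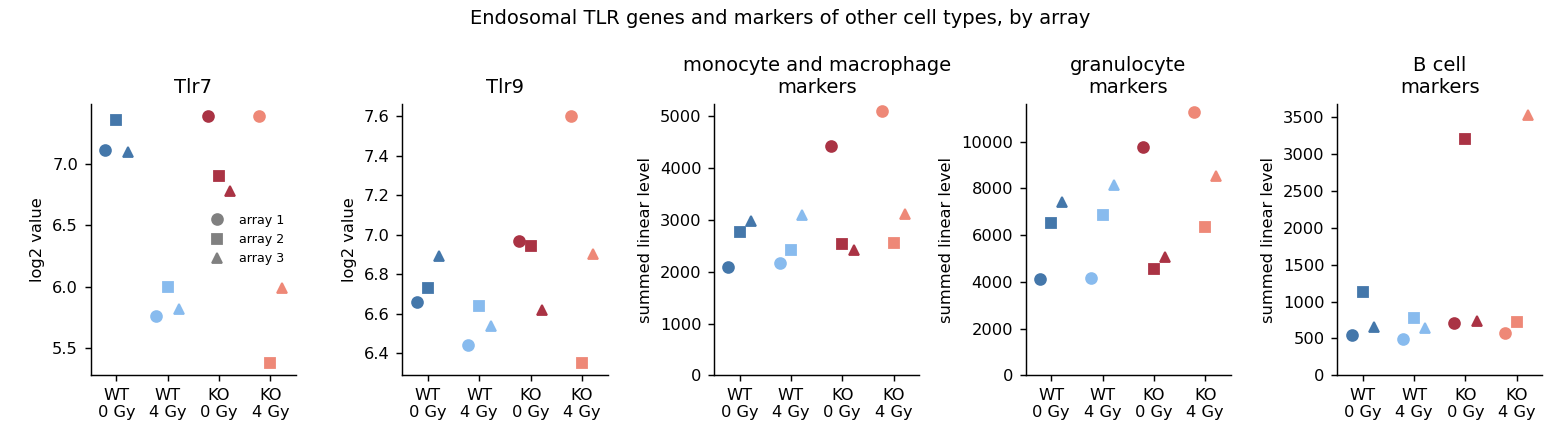
Log2 value of Tlr7 and Tlr9 and the summed linear level of 3 lists of cell type markers (vertical axes) in each of the 12 arrays, by group (horizontal axes), with a symbol for each array number. Irradiated KO array 1 has the highest Tlr9 value (7.60), the highest monocyte sum (5092) and the highest granulocyte sum (11271).

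Tlr3, the endosomal receptor for double-stranded RNA, was dim. Its values were 6.16, 5.23 and 5.62 in untreated WT, 6.36, 5.21 and 5.27 in irradiated WT, 5.43, 5.34 and 5.66 in untreated KO and 5.92, 5.59 and 5.51 in irradiated KO cells. The groups overlapped throughout, and the arrays numbered 1 of the WT groups stood above the others. Irradiation differences were -0.06 in WT and 0.19 in KO cells (SE 0.29 each), with 95% intervals of -0.69 to 0.57 and -0.44 to 0.82, so that changes of the size seen for Tlr7 in WT cells lie outside them.

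Zbp1 was at 6.42, 6.54 and 6.07 in untreated WT and at 6.60, 6.32 and 6.71 in irradiated WT cells. In KO cells its values were 6.26, 6.30 and 6.30 without and 6.64, 6.51 and 6.39 with irradiation. The irradiated KO arrays were above the untreated ones, by 0.23 on average (SE 0.14, limma adjusted p = 0.423). In WT the groups overlapped, with a difference of 0.20 (adjusted p = 0.473). The average was 0.21 (SE 0.10, adjusted p = 0.172).

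Aim2 stayed in a narrow range, from 8.01 to 8.51 over the 12 arrays. Group means were 8.20 ± 0.12, 8.20 ± 0.25, 8.38 ± 0.12 and 8.27 ± 0.10 (SD, n = 3) in untreated WT, irradiated WT, untreated KO and irradiated KO cells, and neighbours in order of level overlapped. Irradiation gave 0.00 in WT (95% interval -0.29 to 0.29, limma adjusted p = 0.993) and -0.12 in KO cells (interval -0.41 to 0.17, adjusted p = 0.706).

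Over the 9 sensor genes, limma called 0 for irradiation in WT cells, where it called 4.83% of all genes tested, and 3 of the 9 had an unadjusted p under 0.05, beside 19.8% of all genes. Blocks by replicate number within each genotype, KO arrays included, changed the count called to 1 of 9, Tlr7 (adjusted p = 0.00971), beside 8.0% of all genes. In KO cells the fit without a block called 0 of 9 against 5.94% of all genes. There 0 of 9 had an unadjusted p under 0.05, beside 19.9%. In the average contrast Tlr7 was the 1 of 9 called, against 16.5% of all genes, and 4 of 9 had an unadjusted p under 0.05, beside 30.1%. For the difference of the irradiation effects 0 of 9 and 0.0% of all genes passed, with 0 of 9 at an unadjusted p under 0.05, beside 1.53%. The members' median differences were -0.17 in WT, -0.10 in KO cells and -0.06 on average, beside medians over all genes of 0.00, -0.02 and 0.00.

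Groups that did not overlap were counted too. Ddx58, Mavs, Tlr7 and Tlr9 had all irradiated WT arrays below all untreated WT arrays, 4 of 9, where 13.3% of all genes did. No sensor gene was higher there, beside 11.4%, and 24.8% of all genes moved either way. In KO cells Dhx58 was lower without overlap (13.2% of all genes) and Zbp1 higher (10.2%), together 2 of 9 beside 23.4%. No sensor gene had all 6 irradiated arrays on the same side of all 6 untreated ones, as 8.31% of all genes had (4.68% lower, 3.62% higher). Of the 9, untreated KO arrays were below untreated WT arrays in Ifih1, Ddx58 and Dhx58, beside 3.55% of all genes lower, 4.4% higher and 7.96% either way. Irradiated KO arrays were below irradiated WT arrays in Ifih1, beside 3.83% lower, 2.57% higher and 6.4% either way. Both genotype counts use the contrast that chose Ifih1.

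**Figure D3:**
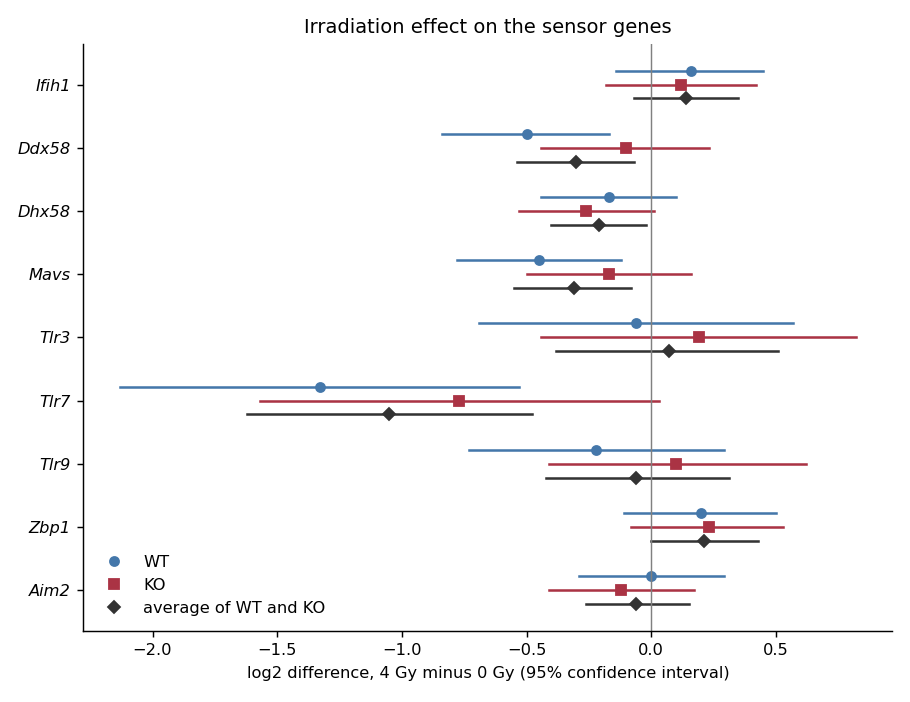
Log2 difference between irradiated and untreated cells (horizontal axis) for each sensor gene (vertical axis), in WT, in KO and averaged, with 95% confidence intervals of the limma fit. Tlr7 has the most negative values, -1.33, -0.77 and -1.05, and Ifih1 lies between 0.12 and 0.16.

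Genes around the sensors were followed in 8 lists of 142 genes, the 9 sensors left out, of which 116 could be tested. In the average irradiation contrast 12 of the 116 rose and 11 fell, beside 6.9% and 9.6% of all genes tested. In WT cells 4 rose and 2 fell (2.13% and 2.7% of all genes), and in KO cells 6 rose and 4 fell (2.74% and 3.2%). Pairing the arrays by replicate number within each genotype as a block gave 13 of 116 in WT cells, 7 higher and 6 lower, while calls over all genes went from 4.83% to 8.0%. The WT total of 6 was 3 without irradiated WT array 1, irradiated WT array 3 or untreated WT array 3, where 4.15%, 2.28% and 2.05% of all genes were called. It was 12 without irradiated KO array 1, where 6.78% were. The KO total of 10 was 19 without irradiated KO array 1, where calls over all genes went from 5.94% to 10.2%. It was 5 without irradiated KO array 2 or untreated KO array 2 (3.05% and 2.55% of all genes), and 6 without irradiated KO array 3 or untreated KO array 1 (3.47% and 3.15%).

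Among adaptors and kinases, 3 of 14 rose on average and 0 fell, beside 6.9% and 9.6% of all genes (median 0.01, all genes 0.00). Ikbke, the kinase IKK-epsilon that phosphorylates interferon regulatory factors, rose most. Its values were 8.19, 8.57 and 8.59 in untreated WT, 9.40, 9.64 and 9.70 in irradiated WT, 8.03, 8.44 and 8.50 in untreated KO and 9.49, 9.47 and 9.70 in irradiated KO cells. All irradiated arrays were above all untreated arrays. Its rise was 1.13 in WT (SE 0.16, limma adjusted p = 0.00132) and 1.23 among KO arrays (SE 0.16, adjusted p = 0.000754). Both calls held in the 23 alternatives run for each. Tank, a scaffold of that kinase, rose by 0.39 on average (adjusted p = 0.0059). Ikbkg, which encodes NEMO, rose by 0.77 (adjusted p = 0.023).

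Among the other sensors of microbial or self molecules, 1 of 18 rose on average and 2 fell (median -0.01, all genes 0.00). Over all genes 6.9% rose and 9.6% fell. Nod2, a receptor for bacterial cell wall fragments, was at 6.26, 6.10 and 6.32 in untreated WT and at 6.78, 7.24 and 6.89 in irradiated WT cells. It rose by 0.72 on average (SE 0.09, limma adjusted p = 0.000272). Cgas, whose product detects cytosolic DNA, was at 6.16, 6.41 and 6.41 in untreated WT, 5.93, 5.59 and 5.87 in irradiated WT, 6.51, 6.51 and 6.11 in untreated KO and 5.87, 5.58 and 5.79 in irradiated KO cells. Every irradiated array was below every untreated one, and Cgas fell by 0.58 on average (SE 0.10, adjusted p = 0.00244). Mndal, of the same DNA-binding family as the IFI204 sensor, fell by 0.74 (adjusted p = 0.000433). Mndal has near-identical neighbours in its gene cluster, so its probe signal may be shared.

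Nucleases that clear nucleic acid had 2 of 5 tested genes that fell and 0 that rose on average (median -0.31, all genes 0.00). Over all genes 9.6% fell and 6.9% rose. Rnaseh2b, a subunit of the enzyme that removes RNA from RNA-DNA hybrids, fell by 0.84 (SE 0.14, limma adjusted p = 0.0013), from 8.21, 8.47 and 8.33 to 7.27, 7.15 and 7.44 in WT cells. In KO cells it had 8.45, 8.32 and 7.97 without and 8.09, 7.32 and 7.45 with irradiation. These groups overlapped, and the KO difference of -0.63 did not pass (limma adjusted p = 0.0778). Samhd1, which degrades deoxynucleotides, fell by 0.63 (adjusted p = 0.00144). Of 11 genes in this list only 5 could be tested.

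Inflammasome and necroptosis genes had 1 of 10 that rose on average and 2 that fell (median -0.08, all genes 0.00). The shares over all genes were 6.9% and 9.6%. Casp4, the caspase-11 gene of the noncanonical inflammasome, rose by 0.86 (SE 0.11, limma adjusted p = 0.000246). Its irradiated values were 8.81, 8.63 and 8.63 in WT and 8.70, 8.69 and 8.65 in KO cells, above untreated values of 7.41 to 8.21. Pycard, the adaptor ASC that links AIM2 to caspase-1, fell by 0.86 (SE 0.18, adjusted p = 0.00603). Irradiated KO array 1, at 8.26, was again the highest irradiated array for this gene. Il18, a cytokine that the inflammasome releases, fell by 1.17 (SE 0.24, adjusted p = 0.00622).

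Co-factors of the sensors had 3 of 19 genes that rose and 1 that fell on average (median 0.05, all genes 0.00). The shares over all genes were 6.9% and 9.6%. Cnpy3, a chaperone of Toll-like receptors, fell by 0.44 (SE 0.10, limma adjusted p = 0.0108). The deubiquitinase gene Cyld rose by 0.34 (adjusted p = 0.0237), Mex3c by 0.35 (adjusted p = 0.0327) and Tax1bp1 by 0.24 (adjusted p = 0.0452). Of the interferon transcription factors and receptors 1 of 15 passed, beside 16.5% of all genes. This was Irf8, which fell by 0.66 (SE 0.17, adjusted p = 0.0217) and is also a marker in the plasmacytoid list.

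Interferon-induced effectors, the genes that act behind the sensors, had 4 of 30 that rose and 3 that fell on average (median -0.05, all genes 0.00). Over all genes 6.9% rose and 9.6% fell. Mx2, an antiviral GTPase, rose by 0.61 (SE 0.08, limma adjusted p = 0.000455) and the exonuclease gene Isg20 by 0.67 (adjusted p = 0.011). Ifit2 fell by 0.53 (adjusted p = 0.00342), and the immunoproteasome subunits Psmb9 and Psmb8 fell by 0.73 (adjusted p = 0.00471) and 0.56 (adjusted p = 0.00603). Directions were mixed within the list.

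Calls of Ikbkg, Cyld, Mex3c, Tax1bp1, Irf8 and Isg20 in the average contrast were lost in some alternatives. Of single arrays, Ikbkg lost it without irradiated KO array 2 (adjusted p = 0.0585) or 3 (0.0575), untreated KO array 1 (0.0596), irradiated WT array 2 (0.0511) or 3 (0.0526), or untreated WT array 3 (0.062). Cyld lost it without untreated KO array 1 (0.0549), irradiated WT array 2 (0.0518) or untreated WT array 2 (0.056). Irf8 lost it without untreated KO array 1 (0.0515) or 2 (0.0568), irradiated WT array 3 (0.0536) or untreated WT array 2 (0.058). Mex3c lost it without irradiated KO array 2 (0.0728) or 3 (0.0599), untreated KO array 1 (0.0619) or 2 (0.0784), irradiated WT array 3 (0.08), or untreated WT array 2 (0.0646) or 3 (0.0839). The Tax1bp1 call held in 3 of the 12 fits that leave out an array, those without irradiated KO array 1, irradiated WT array 3 or untreated WT array 1. Leaving out untreated WT array 2 gave the highest p of these fits for Tax1bp1 (0.102), and its call was also lost with array medians subtracted (0.0762), without the brightness limit (0.0516) and with a replicate block, either inside each genotype (0.0622) or across both (0.0533). Isg20 kept its call without any single array.

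**Figure D4:**
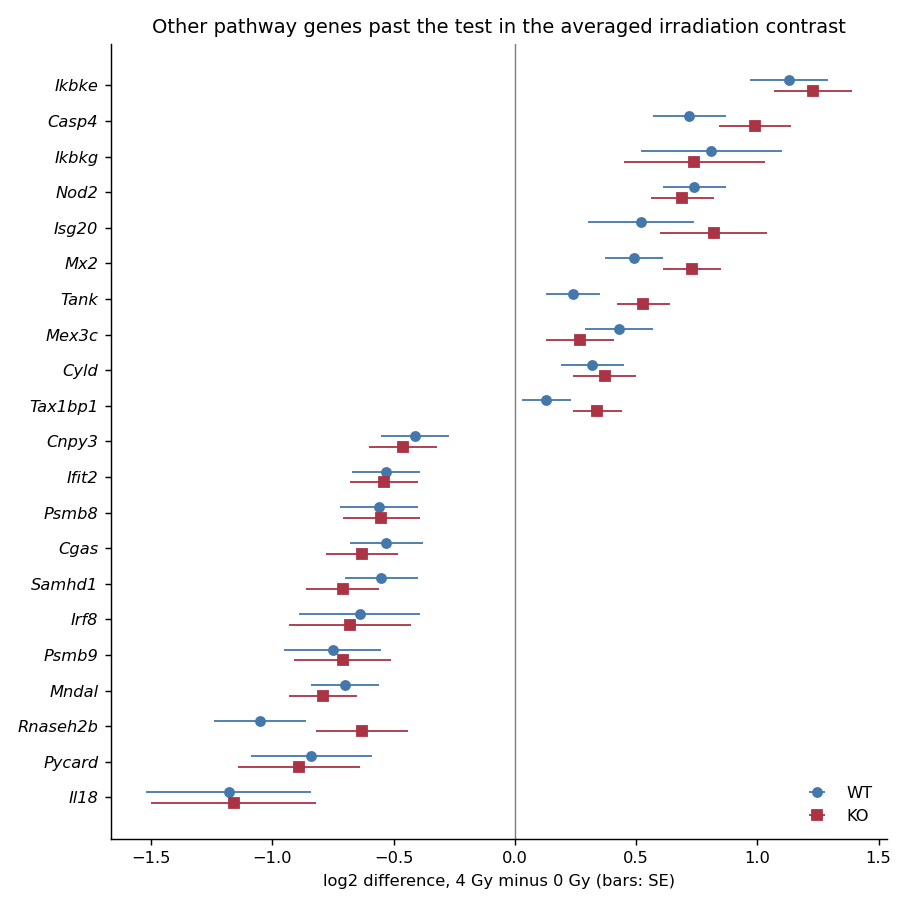
Log2 difference between irradiated and untreated cells (horizontal axis) in WT and in KO cells, with SE, for the pathway genes named in the text (vertical axis) that passed the test in the average contrast. Ikbke has the highest values, 1.13 and 1.23, and Il18 the lowest, -1.18 and -1.16.

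Between the genotypes no pathway gene passed the limma test. Without irradiation 0 of 116 were called beside 0.00652% of all genes (Zc3hc1 alone), with 11 of 116 at an unadjusted p under 0.05, beside 2.15% of all genes. After irradiation 0 of 116 were called, again beside 0.00652%, with 4 of 116 at that level, beside 3.07%. For the difference of the irradiation effects 0 of 116 were called, and 0 had an unadjusted p under 0.05. The interferon-induced effectors had a median KO minus WT difference of -0.26 without irradiation, with 27 of 30 below 0, beside a median of 0.00 and 48.4% below 0 over all genes. Their mean log2 value was 8.09, 8.10 and 7.92 in the untreated WT arrays and 7.69, 7.75 and 7.75 in the untreated KO arrays, which did not overlap. The erythroid marker sum did not overlap between these groups either, at 671 to 883 in untreated WT and 1029 to 1438 in untreated KO arrays, and its part in the effectors' values was not tested. After irradiation the median was -0.14, with 25 of 30 below 0, beside a median of -0.01 and 52.7% below 0 over all genes. The effectors' means of 8.19, 7.98 and 7.75 in WT and 7.91, 7.73 and 7.79 in KO arrays then overlapped. The median was -0.28 and -0.27 without irradiation under 2 other scalings of the arrays, and -0.12 and -0.16 after it. Members of this list respond to the same signals and are not independent of each other.

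Of the interferon ligands, 5 of 9 could be tested and 0 passed in any contrast. Ifnb1, interferon beta, was below the brightness limit, at 3.68 to 4.18 over the 12 arrays. Ifng was at 5.13 to 5.58, close to the limit.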

How the data were processed

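The authors deposited normalized expression on the log2 scale, with 41345 probe sets on each array. Per the submitters' processing notes they were made with the R package oligo and RMA, which corrects background, normalizes by quantiles and summarises probes. Their versions and the genome build: not given in the sources used here. Quantile normalization sets the arrays to a common distribution, so a change shared by most genes would not be seen. The platform's gene table gave exactly 1 symbol for 23521 probe sets, several for 1814 and none for 16010. The brightest probe set per gene was kept.

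Genes above the 40th percentile of the table (log2 5.29) in at least 3 arrays were tested (15348 tested, 6832 removed). The package limma 3.58.1 (lmFit, then eBayes; R 4.3.3) fitted 4 group means over all 12 arrays. P-values are two-sided, adjusted by Benjamini-Hochberg over all genes tested, with a threshold of 0.05. The fit was tested on simulated data. The number of arrays limits the precision: the median SE was 0.147 for a difference of 2 groups, 0.104 for the average and 0.207 for the interaction.

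Same-numbered arrays of the WT groups deviated together (r = 0.491, 0.476 and 0.42 over genes). Those of the KO groups did so only at number 1 (0.474, -0.239 and -0.122). Between WT and KO, same-numbered arrays had r = 0.161, 0.233 and 0.102 untreated and 0.341, -0.289 and 0.284 irradiated. Whether the numbers stand for shared pools was not tested. The fit above has no block, and fits with a block by number are alternatives. The members and the gene lists were chosen with earlier results of these data known. Named genes are the 9 members, Zc3hc1, the 5 most like Ifih1 (1 predicted gene among the closest was not named), up to 4 passing genes per list and contrast by smallest p, and the 5 tested neighbours of Ifih1 on each side. Ccl5 and Gca's separate values were named after they were seen. Other scalings, filters, priors, blocks and arrays left out were tried.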

Additional observations from a re-analysis of the deposited data

How the results depend on the processing

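The fall of Tlr7 in the average contrast kept its direction in all 22 alternatives and its call in 21, with differences from -1.33 to -0.83. The call was lost without untreated KO array 2 and irradiated KO array 3 (0 members called, beside 9.14% of all genes), a choice made after seeing the data. Left-out single arrays gave 1 to 2 members called in that contrast, beside 12.1% to 22.2% of all genes. In WT cells 1 member, Tlr7, was called with the arrays compared alone, beside 4.75% of all genes. The same held with the replicate block (7.01%) and with the replicate block within genotype (8.0%). With single arrays left out 0 to 1 were called (2.05% to 6.78%). Tlr7 was also called without untreated KO array 1 and irradiated KO array 1 (6.16%), a pair also chosen after seeing the data. In KO cells 1 member was called without that pair of arrays (5.34% of all genes), and 0 to 1 with single arrays left out (2.55% to 10.2%). The interaction had 0 members and 0 pathway genes called in all 22 alternatives, and the genotype contrasts 0 pathway genes.

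Pathway genes called in WT cells numbered 13 with the replicate block within genotype (8.0% of all genes) and 11 with the replicate block (7.01%). They numbered 11 without untreated KO array 1 and irradiated KO array 1 (6.16%), and 3 to 12 with single arrays left out (2.05% to 6.78%). In KO cells they numbered 18 and 16 with these blocks (9.06% and 7.97% of all genes). With single arrays left out there were 5 to 19 (2.55% to 10.2%). Without untreated KO array 2 and irradiated KO array 3 there were 2 (1.84%). In the average contrast they numbered 15 without that last pair (9.14% of all genes) and 16 to 30 with single arrays left out (12.1% to 22.2%). The cause of these shifts was not tested. Leaving out arrays leaves fewer for the test, and the counts moved up as well as down. Without irradiated KO array 1 they went from 10 to 19 in KO and from 6 to 12 in WT cells. Array medians and cyclic loess in place of the deposited scaling changed no count of members called. The share of higher calls over all genes in the average contrast was 41.8% in the deposited values and 50.2% after cyclic loess.

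Of 810 comparisons of a member under an alternative, 28 had the other sign, all of them not called in either setting, and 0 called values turned. The Ifih1 genotype difference lay between -0.76 and -0.66 in the 21 alternatives that give it. Signal over background limits Tlr3, which was above the brightness limit in 9 of 12 arrays.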
